A study of Mus musculus with 4 samples.

Results

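The genes described are 10 targets and feedback inhibitors of fibroblast growth factor (FGF) signalling, Spry1, Spry2, Spry4, Dusp6, Etv1, Etv4, Etv5, Il17rd, Spred1 and Spred2. They were chosen by symbol, and all 10 were present among the 32285 genes of each of 4 single-cell matrices and had at least 1 UMI (a counted RNA molecule) in every library. The cells came from mouse embryos of the Swiss-Webster strain at E10.5 (E marks the embryonic day), staged at 34 to 36 somites. There were 2 libraries from conditional knockout (cKO) embryos with Pax2-Cre, floxed Tbx2 (Tbx2f/f), floxed Tbx3 (Tbx3f/f) and the reporter allele Rosa26-GFPf/+, and 2 libraries from control embryos of genotype Pax2-Cre;Rosa26-GFPf/+, which carried no floxed Tbx allele. Both genotypes carried the Cre and the GFP reporter. Pax2-Cre drives both the deletion and the GFP label, so the GFP-positive, DAPI-negative sort selected for cells of the Pax2-Cre lineage. These are otic vesicle and cochleovestibular ganglion with neighbouring neural tube and pharyngeal cells. The cells analysed also held 198 leukocyte-like, 124 endothelium-like and 666 mesenchyme-like cells. Whether each class carried the deletion was not tested. The protocols name 2 cKO and 3 control embryos with vesicles pooled, and do not say how embryos were divided among libraries. The p-values therefore measure the spread between libraries, which may be technical.

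FGF ligands bind receptor tyrosine kinases (Fgfr1 to Fgfr4) and activate the RAS-ERK kinase cascade. Cells answer by transcribing the PEA3 group of ETS transcription factors (Etv1, Etv4, Etv5) and a set of inhibitors that close a negative feedback loop: the Sprouty proteins, the related Spred proteins that act on RAS and RAF, the phosphatase Dusp6 that removes phosphate from ERK, and Il17rd (also called Sef), a membrane protein that dampens the receptor signal. In the mouse ear, Fgf3 and Fgf10 act in induction and patterning of the otic tissue, and Fgf8 and Fgf10 are made by early neurogenic cells. Tbx2 and Tbx3 are T-box transcription factors that act mostly as repressors.

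In the GENCODE vM21 annotation of mm10 Spry1 lies at chr3:37639947-37644598 (plus strand) and Spry2 at chr14:105891947-105896819 (minus strand). Dusp6 lies at chr10:99263231-99267489 (plus strand). The ETS genes lie at chr12:38779380-38870484 (Etv1, plus strand), chr11:101769742-101785371 (Etv4, minus strand) and chr16:22381309-22439719 (Etv5, minus strand). Il17rd spans chr14:27038941-27107286, Spred1 spans chr2:117121374-117182279 and Spred2 spans chr11:19924375-20024026, all on the plus strand. The promoter windows of 3 members are printed because Spry1 and Spry2 moved together in otic cells while Dusp6 did not pass the test there. Each is the RefSeq sequence of build GRCm38.p6, 250 bases before to 50 bases after the annotated start, written along the gene's own strand. Capitals mark an ETS core (CCGGAA) or a PEA3 site (AGGAAG), searched on both strands.
Spry1 (chr3:37639697-37639996, plus strand): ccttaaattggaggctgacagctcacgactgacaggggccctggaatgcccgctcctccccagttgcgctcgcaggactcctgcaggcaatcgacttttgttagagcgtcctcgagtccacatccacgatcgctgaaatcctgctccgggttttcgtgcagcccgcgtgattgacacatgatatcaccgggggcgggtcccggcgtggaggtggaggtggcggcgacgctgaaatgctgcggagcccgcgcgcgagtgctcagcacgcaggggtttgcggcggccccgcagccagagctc
Spry2 (chr14:105896770-105897069, minus strand): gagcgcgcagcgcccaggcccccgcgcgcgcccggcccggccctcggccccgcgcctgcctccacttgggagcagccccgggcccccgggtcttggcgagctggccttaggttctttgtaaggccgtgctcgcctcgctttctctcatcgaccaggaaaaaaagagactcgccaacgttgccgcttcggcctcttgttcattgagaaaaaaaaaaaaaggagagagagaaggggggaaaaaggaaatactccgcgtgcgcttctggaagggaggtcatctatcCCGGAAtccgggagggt
Dusp6 (chr10:99262981-99263280, plus strand): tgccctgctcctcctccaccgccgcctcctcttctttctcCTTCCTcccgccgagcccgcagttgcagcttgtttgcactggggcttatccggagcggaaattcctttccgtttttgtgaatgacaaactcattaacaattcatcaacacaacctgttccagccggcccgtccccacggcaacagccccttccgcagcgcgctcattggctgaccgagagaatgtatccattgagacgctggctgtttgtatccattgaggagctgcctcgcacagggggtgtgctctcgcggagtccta
Spry2 holds 1 ETS core near its start site, Dusp6 holds 1 PEA3 site on the minus strand, and Spry1 holds neither. Among the 8 members with a promoter entry (10 windows), 1 had an ETS core, 4 had a PEA3 site (Dusp6, Etv1, Etv5 and Spred2) and 0 had the T-box site AGGTGTGA. Over all 32851 promoter windows of the same length, 14.9% held CCGGAA, 35.4% held AGGAAG and 1.28% held AGGTGTGA. A match describes the letters of the window and not a bound site.

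After filtering, 3220 and 3713 cells were kept in the cKO libraries and 3869 and 3597 cells in the control libraries, 14399 in all; wherever 2 values are given for a genotype, they are those of its libraries 1 and 2. The kept cells held 98370687 and 115765335 UMIs in the cKO libraries, against 118812385 and 102652527 UMIs in the control libraries. The median share of mitochondrial UMIs was 1.31% and 1.38% in the cKO libraries, against 2.41% and 2.96% in the control libraries, and the part of this difference in the results was not tested. Pairs of libraries shared between 2 and 8 cell barcodes. Clustering without the members, the FGF ligands, Tbx2 and Tbx3 gave 26 clusters, and classes were named from marker genes. In otic epithelium-like cells Tbx3 had 22.2 and 17.8 CPM (UMI counts scaled to a common total per class) in the cKO libraries, against 63.1 and 60.7 CPM in the control libraries (log2 change -1.47, SE 0.11, edgeR adjusted p = 7.92e-05). Tbx2 had 69.0 and 67.5 CPM in the cKO libraries, against 92.7 and 102 CPM in the control libraries (log2 change -0.35, SE 0.07, edgeR adjusted p = 0.00579). Reads of this kit come from the 3′ end of the transcript, which may lie outside the deleted exons, so the Tbx2 and Tbx3 levels may check nothing about the deletion itself.

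Levels were compared between classes within a gene and not between genes. Of the Sprouty genes, Spry1 was highest in surface ectoderm-like cells (22.2 to 45.1 CPM over the 4 libraries) and otic epithelium-like cells (18.5 to 37.0 CPM), whose ranges overlapped. It ran from 3.86 to 10.4 CPM in mesenchyme-like cells, 3.81 to 5.88 CPM in epibranchial visceral sensory neuron-like cells and 2.92 to 6.13 CPM in the placodal sensory neuron lineage-like cells, again with overlapping ranges. Neural tube neuron-like and progenitor-like cells and leukocyte-like cells had 0 to 3.88 CPM of Spry1. Spry2 had 10.4 to 38.6 CPM in surface ectoderm-like cells, 12.3 to 18.8 CPM in epibranchial neuron-like cells, 10.1 to 22.2 CPM in otic cells and 0.471 to 1.12 CPM in leukocyte-like cells. Spry4, which lies at chr18:38586247-38601415 on the minus strand (mm10), was highest in epibranchial neuron-like cells (5.08 to 9.18 CPM), reached 1.15 to 5.50 CPM in mesenchyme-like cells, had 1.03 to 1.33 CPM in otic cells and was listed at 0 in all 4 leukocyte sums.

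Among named classes Dusp6, the ERK phosphatase, was highest in leukocyte-like cells (72.1 to 86.2 CPM) and in the 3 endothelium-like sums with at least 20 cells (63.7 to 87.4 CPM). Mesenchyme-like cells (26.8 to 60.4 CPM), surface ectoderm-like cells (19.6 to 63.3 CPM), epibranchial neuron-like cells (30.5 to 44.6 CPM) and otic cells (22.6 to 30.1 CPM) followed with overlapping ranges. Placodal neuron lineage cells had 12.6 to 23.1 CPM of Dusp6, and neural tube progenitor-like and neuron-like cells had 0.616 to 4.06 CPM. The leukocyte-like cells had Fgfr2 and Fgfr4 listed at 0 in every library and Fgfr1 at 0.374 to 4.24 CPM, so high Dusp6 levels stood beside little FGF receptor RNA there.

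The 3 ETS genes were distributed differently. Etv4 ran from 7.78 to 15.1 CPM in otic cells, 7.31 to 14.0 CPM in epibranchial neuron-like cells, 0 to 10.1 CPM in surface ectoderm-like cells and 4.14 to 9.62 CPM in mesenchyme-like cells, against 0 to 1.76 CPM in neural tube cells and 0 to 0.491 CPM in leukocyte-like cells. Etv5 had overlapping ranges in otic cells (25.6 to 28.1 CPM), leukocyte-like cells (19.8 to 30.6 CPM) and epibranchial neuron-like cells (17.3 to 29.6 CPM). Etv1 was lower in otic cells (10.0 to 11.9 CPM) than in epibranchial neuron-like cells (22.4 to 28.1 CPM) and leukocyte-like cells (18.7 to 28.3 CPM), with no overlap.

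Il17rd was highest in otic cells (40.1 to 57.4 CPM) and mesenchyme-like cells (37.0 to 48.8 CPM), lower in epibranchial neuron-like cells (16.8 to 24.2 CPM) and near 0 in leukocyte-like cells (0 to 0.625 CPM). Spred1 had 43.2 to 71.6 CPM in leukocyte-like cells, 30.3 to 45.4 CPM in otic cells, 35.0 to 42.0 CPM in mesenchyme-like cells and 22.3 to 40.5 CPM in neural tube progenitor-like cells. Spred2 stayed between 2.95 and 17.1 CPM in every class tested. Over the 32 sums of 8 classes by 4 libraries, Spry4 and Etv4 had the most similar log2(CPM + 1) of all pairs of members (Pearson's r = 0.819) and Spry2 and Spred1 the least similar (r = -0.302). Among 10222 other genes with a mean of at least 5 CPM over the same 32 sums, those closest to the members' mean standardized level were Serpinf1 (r = 0.865), Rassf9 (r = 0.842), Dhrs4 (r = 0.824), Stk26 (r = 0.813) and Phlda3 (r = 0.81). These values describe sums that share cells' class and library and carry no p.

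**Figure D1:**
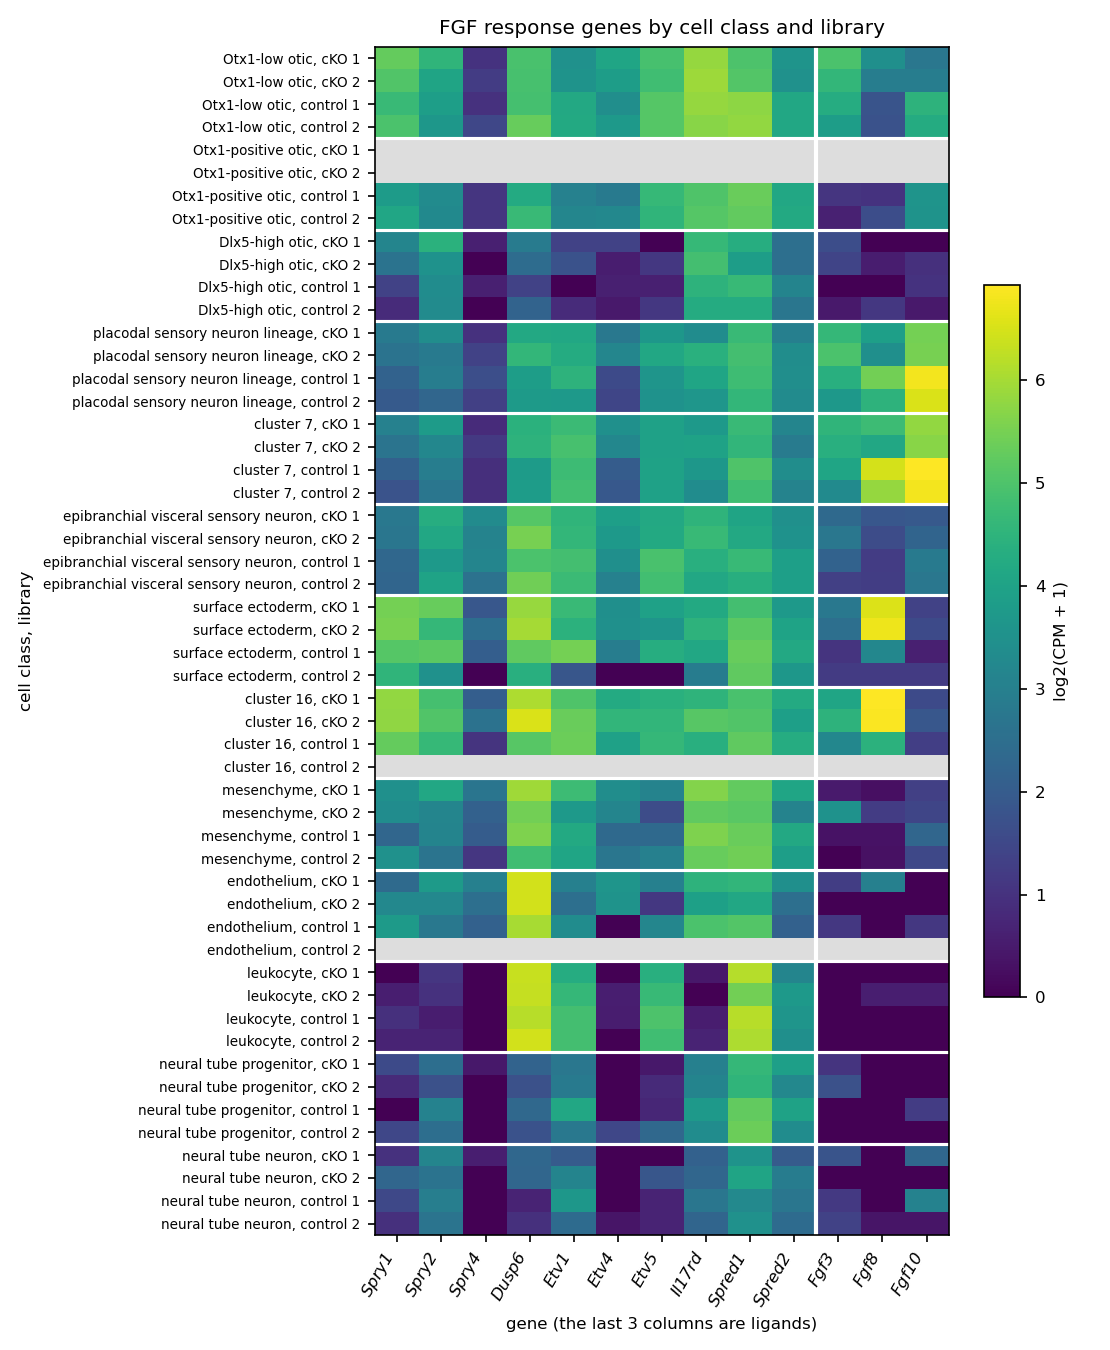
Heat map of the log2(CPM + 1) level of the 10 members and of Fgf3, Fgf8 and Fgf10 (columns) in each class and library (rows, cKO libraries above control libraries within a class); grey marks sums of under 20 cells. Dusp6 is high in leukocyte-like and endothelium-like rows (63.7 to 87.4 CPM) and in the cKO rows of cluster 16, Spry1 is high in the Otx1-low otic, surface ectoderm-like and cluster 16 rows, and Etv4 is near 0 in neural tube and leukocyte-like rows. The Otx1 and Dlx5 otic territories and the unnamed clusters 7 and 16 are described with their results.

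In otic epithelium-like cells (1162 and 2051 cells in the cKO libraries, 2160 and 1839 in the control libraries) the members split: 4 rose, 2 fell and 4 did not pass the test. The 4 that rose were the Sprouty genes Spry1 and Spry2, the ETS factor Etv4 and the membrane inhibitor Il17rd; the 2 that fell were the RAS-RAF inhibitors Spred1 and Spred2. A gene was called at a Benjamini-Hochberg adjusted p under 0.05 over all genes tested. The 6 called members of 10 compare with 40.1% of all tested genes called in otic cells; 20.8% were called higher and 19.3% lower in cKO cells. The members' median log2 change was 0.21, beside -0.02 over all genes tested.

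Spry1 had 37.0 and 30.3 CPM in the cKO libraries, against 18.5 and 21.3 CPM in the control libraries. The genotypes did not overlap, and the log2 change was 0.92 (SE 0.11, edgeR adjusted p = 0.000706). Spry2 had 22.2 and 15.4 CPM in the cKO libraries, against 11.4 and 10.1 CPM in the control libraries. Both cKO values lay above both control values, with library cKO 1 the highest (log2 change 0.96, SE 0.17, edgeR adjusted p = 0.00342). Etv4 had 15.1 and 12.7 CPM in the cKO libraries, against 7.78 and 9.65 CPM in the control libraries, without overlap (log2 change 0.84, SE 0.13, edgeR adjusted p = 0.00189). Il17rd had 54.2 and 57.4 CPM in the cKO libraries, against 43.0 and 40.1 CPM in the control libraries. These 4 values also did not overlap, and the log2 change was 0.59 (SE 0.07, edgeR adjusted p = 0.000871).

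The Spred genes moved the other way. Spred1 had 30.3 and 31.9 CPM in the cKO libraries, against 45.4 and 44.0 CPM in the control libraries (log2 change -0.36, SE 0.07, edgeR adjusted p = 0.00513). Spred2 had 10.8 and 10.1 CPM in the cKO libraries, against 16.6 and 16.6 CPM in the control libraries (log2 change -0.51, SE 0.09, edgeR adjusted p = 0.00281). For both genes the 2 control libraries lay close together and above the 2 cKO libraries.

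Dusp6 had 28.8 and 27.8 CPM in the cKO libraries, which lay between the control values of 22.6 and 30.1 CPM (log2 change 0.27, edgeR adjusted p = 0.0908). Dusp6 was called in 4 of 11 alternative analyses (adjusted p down to 0.00473), and also without control 2 (log2 change 0.47, adjusted p = 0.00745) and without cKO 2 (log2 change 0.30). Etv5 had 27.8 and 25.6 CPM in the cKO libraries, against 28.1 and 25.9 CPM in the control libraries (edgeR adjusted p = 0.199). Etv1 had 10.0 and 10.4 CPM in the cKO libraries, against 11.9 and 11.8 CPM in the control libraries (log2 change -0.05, edgeR adjusted p = 0.673). Spry4 overlapped between genotypes at about 1 CPM (edgeR adjusted p = 0.663). The response was therefore uneven inside each family: Etv4 passed the test and its relatives Etv1 and Etv5 did not, and Spry1 and Spry2 passed it and Spry4 did not. The differences between these members' responses were not tested.

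**Figure D2:**
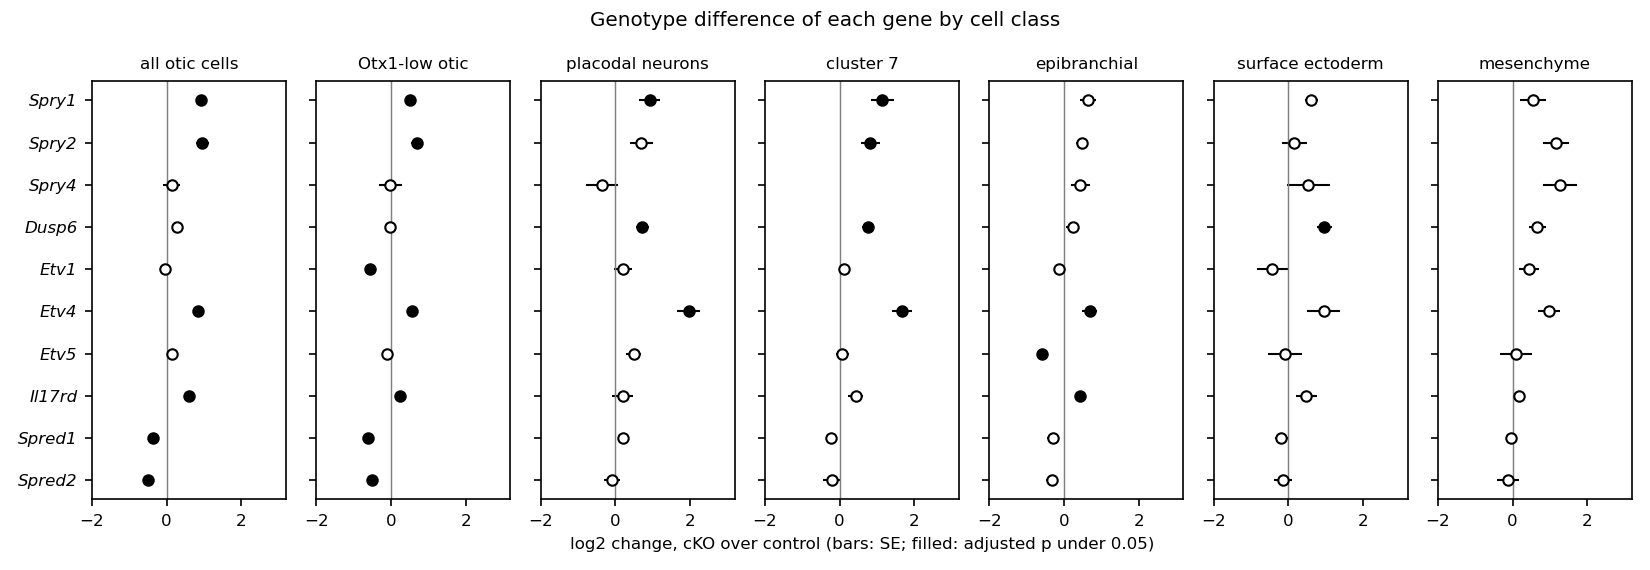
Log2 change of each member in cKO against control cells (edgeR, bars are the standard error) by class; filled points have an adjusted p under 0.05. In otic cells Spry1, Spry2, Etv4 and Il17rd lie to the higher side and Spred1 and Spred2 to the lower side, while in the placodal neuron lineage the Etv4 change of 1.96 stands out.

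The otic clusters were each filled almost wholly by 1 genotype, so no single otic cluster could be compared between genotypes. Clusters 0, 1 and 19 held the cKO cells and clusters 2, 3, 5, 6, 10 and 24 the control cells. After the clusters had been seen, they were grouped by Otx1, a marker of ventral otic cells, and by Dlx5 and Gbx2, markers of dorsal otic cells. Otx1-low cells (clusters 0 and 1 in cKO, 2 and 3 in control) numbered 1099 and 1897 in the cKO libraries, against 995 and 704 in the control libraries. Otx1-positive cells (clusters 5, 6 and 10) numbered only 8 and 9 in the cKO libraries, against 1090 and 1038 in the control libraries. Dlx5-high cells (cluster 19 in cKO, 24 in control) numbered 55 and 145 in the cKO libraries, against 75 and 97 in the control libraries. A difference over all otic cells therefore mixes a different make-up of territories with different levels inside them.

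Control territories themselves differed in member level, in the same order for most members. In control libraries 1 and 2, Spry1 had 24.9 and 30.1 CPM in Otx1-low cells, 13.1 and 16 CPM in Otx1-positive cells and 1.56 and 0.796 CPM in Dlx5-high cells. Etv1 had 17.2 and 17.6 CPM in Otx1-low control cells, 7.27 and 8.14 CPM in Otx1-positive ones and 0 and 0.796 CPM in Dlx5-high ones. Etv5 had 33.7 and 33.1 CPM in Otx1-low control cells and 24 and 22.3 CPM in Otx1-positive ones, and was almost missing from Dlx5-high control cells (0.520 and 1.19 CPM). Spry2 and Spred2 departed from this: Spry2 was near 9 CPM in both of the other control territories (9.22 and 8.73 CPM in Otx1-positive cells, 9.36 and 9.15 CPM in Dlx5-high cells), and Spred2 was level between Otx1-low (16.8 and 16.9 CPM) and Otx1-positive control cells (16.9 and 17.4 CPM).

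Inside the Otx1-low territory 4 members rose and 3 fell (7 of 10 called, beside 38.8% of all tested genes, 20.5% higher and 18.3% lower). Spry1 had 38.5 and 31.9 CPM in the cKO libraries, against 24.9 and 30.1 CPM in the control libraries, and the step was smaller than over all otic cells (log2 change 0.50, SE 0.12, edgeR adjusted p = 0.00997). The changes of Spry2 (log2 0.69, adjusted p = 0.0130), Etv4 (log2 0.57, adjusted p = 0.0103) and Il17rd (log2 0.25, adjusted p = 0.0244) were likewise called. Il17rd overlapped between genotypes on the CPM scale, at 55.6 and 59.2 CPM in the cKO libraries against 55.7 and 51.0 CPM in the control libraries, and its call was lost when libraries were scaled by their totals alone (log2 0.11, adjusted p = 0.257), without cKO 2 and without control 2. The Spry2 call was lost without control 2 and the Etv4 call without control 1.

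Etv1 fell in the Otx1-low territory, with 10.4 and 10.9 CPM in the cKO libraries against 17.2 and 17.6 CPM in the control libraries (log2 change -0.56, SE 0.09, edgeR adjusted p = 0.00177). Spred1 had 30.8 and 33.0 CPM in the cKO libraries, against 52.5 and 55.1 CPM in the control libraries (log2 change -0.61, adjusted p = 0.00044), and Spred2 fell by 0.51 on the log2 scale (adjusted p = 0.0031). All 3 fell without overlap between genotypes. Dusp6 had 29.9 and 29.2 CPM in the cKO libraries, against 28.4 and 39.0 CPM in the control libraries (log2 change -0.04), and Etv5 changed by -0.10 and Spry4 by -0.02 on the log2 scale. Etv1 and Etv4, both PEA3 factors, thus moved in opposite directions in the same comparison. That comparison sets cKO clusters 0 and 1 against control clusters 2 and 3, so its differences lie between cells of different clusters. Dlx5, pooled over libraries, had 47.5 and 61.5 CPM in clusters 0 and 1, against 77.1 and 101 CPM in clusters 2 and 3. Gbx2 was also lower in both cKO clusters. Whether both sides hold the same kind of cell was not tested.

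In Dlx5-high cells 5 members had enough counts for the test and 1 was called, beside 28.0% of all tested genes. Spry1 had 7.91 and 5.22 CPM in the cKO libraries, against 1.56 and 0.796 CPM in the control libraries (log2 change 2.18, SE 0.51, edgeR adjusted p = 0.00145). It had enough counts for the test in the cKO libraries only, so the size of this change rests on few control counts. The call was lost with DESeq2 (adjusted p = 0.111), without control 2 and without cKO 1. With the Dlx5-high clusters left out, the other otic cells gave the same split as all otic cells, 4 higher and 2 lower (41.6% of all tested genes called).

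**Figure D3:**
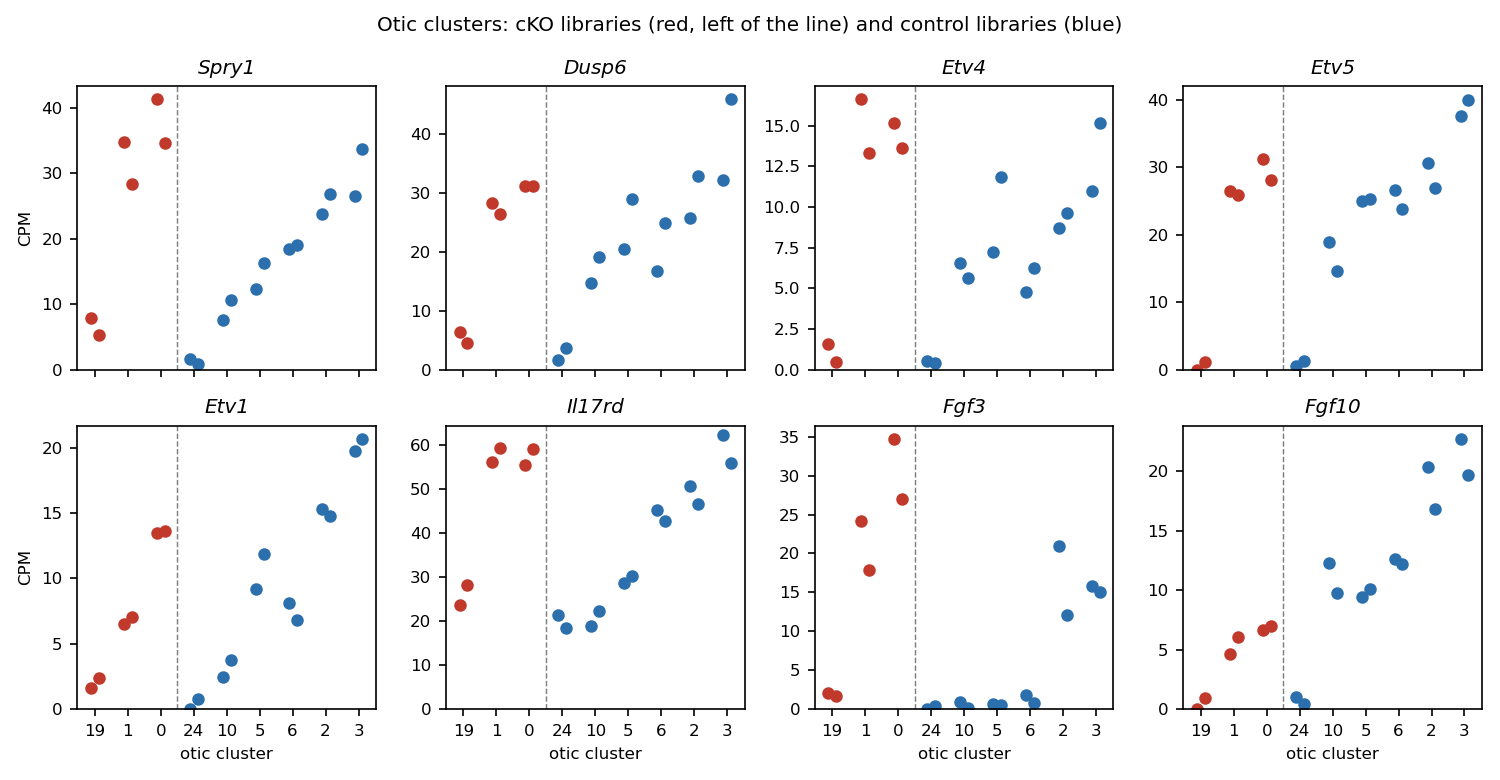
CPM of 6 members and of Fgf3 and Fgf10 in each otic cluster, with cKO libraries (red, clusters 19, 1 and 0) left of control libraries (blue, clusters 24, 10, 5, 6, 2 and 3); each point is a library. In control clusters Dusp6 is lowest in cluster 24 (1.56 and 3.58 CPM) and highest in cluster 3 (32.1 and 45.9 CPM), and Spry1 in cKO cluster 0 (41.4 and 34.6 CPM) lies above the highest control value (33.7 CPM), which cKO cluster 1 (34.8 and 28.3 CPM) straddles.

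Whether the members followed the local ligands was first read across the control otic clusters. Fgf10 had 22.7 and 19.7 CPM in cluster 3, 20.4 and 16.8 CPM in cluster 2, 9.39 to 12.6 CPM in clusters 5, 6 and 10, and 1.04 and 0.398 CPM in cluster 24 (control libraries 1 and 2). Fgf3 was more restricted, with 20.9 and 12.0 CPM in cluster 2, 15.9 and 15.1 CPM in cluster 3 and at most 1.81 CPM in the other 4. Dusp6 ran in much the same order, at 32.1 and 45.9 CPM in cluster 3, 25.6 and 32.9 CPM in cluster 2, and 14.7 to 28.9 CPM in clusters 5, 6 and 10. The 2 clusters rich in Fgf3 and Fgf10 thus had more Dusp6 than the other 4 in control 1 and in control 2.

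As a description over 6 control clusters, the median member's Spearman rho was 0.886 with Fgf10 (members ranged from 0.457 to 0.972), 0.828 with Fgf3 and 0.528 with Fgf8. The same median was 0.657 with the receptor gene Fgfr1 and -0.943 with Fgfr2. With finer clusters, 6 to 10 per library and read in all 4 libraries, the medians were lower for Fgf10 (0.428) and Fgf3 (0.314). They were higher for Fgf8 (0.58) and Fgfr1 (0.711), and less negative for Fgfr2 (-0.615). The order of the 3 ligands thus differed between these readings, with Fgf8 highest in the finer clusters. The cKO libraries entered only with the finer clusters, so the parts of the clustering and of the added libraries cannot be told apart. Over all clusters of every class the medians were 0.324 with Fgf3, 0.344 with Fgf8 and 0.199 with Fgf10. Clusters of 1 library share its depth and its dissection, and no p is given.

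**Figure D4:**
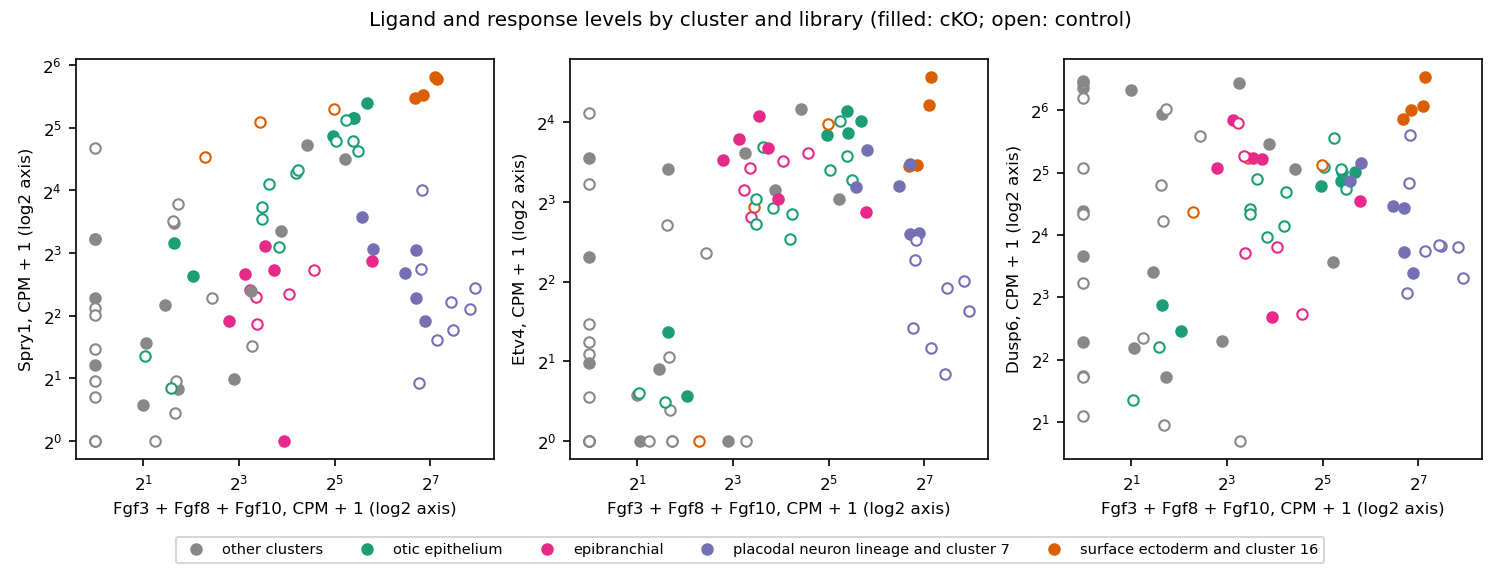
Summed CPM of Fgf3, Fgf8 and Fgf10 (x axis, log2 of CPM + 1) against the level of Spry1, Etv4 and Dusp6 (y axis, log2 of CPM + 1) for each cluster and library; filled points are cKO and open points control. Otic clusters with ligand sums near 1 CPM have the lowest levels of their class, whereas neuron lineage clusters combine a high ligand sum with low Spry1 and leukocyte-like cells combine ligands near 0 with Dusp6 of 72.1 to 86.2 CPM.

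The 3 ligands themselves moved apart in otic cells. Fgf3 had 28.8 and 22.0 CPM in the cKO libraries, against 9.65 and 6.05 CPM in the control libraries (log2 change 1.84, edgeR adjusted p = 0.000612). Fgf8 had 9.49 and 6.35 CPM in the cKO libraries, against 1.70 and 2.16 CPM in the control libraries (log2 change 2.19, adjusted p = 0.000311). Fgf10 fell to 5.50 and 6.29 CPM in the cKO libraries, against 15.8 and 13.5 CPM in the control libraries (log2 change -1.14, adjusted p = 0.000413). None of these 3 overlapped between genotypes. In Otx1-low cells the directions were the same (Fgf3 0.85, Fgf8 1.91, Fgf10 -1.53 on the log2 scale). There Etv1 and the Spred genes fell, as Fgf10 did, and Spry1, Spry2, Etv4 and Il17rd rose, as Fgf3 and Fgf8 did. Because ligands moved both ways, any called member shares its direction with a ligand. Direction alone therefore links no member to a ligand.

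Ligand and members were then read in the same cells. Each cell was thinned to 10000 UMIs, and the summed CPM + 1 of cells with a ligand UMI was set against that of cells without one, inside clusters, as a log2 ratio. Fgf3 was found in 186 of 1097 (17.0%) and 241 of 1978 (12.2%) otic cells of the cKO libraries, against 126 of 2118 (5.95%) and 66 of 1774 (3.72%) in the control libraries; without thinning the shares were 34.4% and 25.5% in the cKO libraries and 9.63% and 6.48% in the control libraries. Fgf10 was found in 4.47% and 5.56% of otic cells of the cKO libraries, against 12.9% and 9.58% in the control libraries (15.8% and 15.9% against 27.7% and 21.1% unthinned). In leukocyte-like cells, which should lack these ligands, all 3 were at 0 of 53 and 51 cells in the cKO libraries and 0 of 48 and 40 cells in the control libraries, which allows shares of up to 5.66% and 5.88% in the cKO libraries and 6.25% and 7.5% in the control libraries. Median depth was 36872 and 33906 UMIs per otic cell in the cKO libraries and 31495.5 and 29904 in the control libraries; in leukocyte-like cells it was 51386.5 and 37911 in the cKO libraries and 41115 and 40883 in the control libraries. Fgf8 was found in 5.56% and 3.64% of otic cells of the cKO libraries, against 1.13% and 1.58% in the control libraries (13.5% and 9.81% against 3.40% and 4.34% unthinned). The Fgf8 share of all 4 libraries, the Fgf3 share of control otic cells and the Fgf10 share of cKO otic cells thus lie within what leukocyte-like cells allow at this number of cells. By the shares alone they cannot be told apart from those of leukocyte-like cells. The limits set by neural tube progenitor-like cells, where a ligand was at 0, were 1.44% and 5% in the cKO libraries and 4.69% and 4.17% in the control libraries. Beside these limits the otic Fgf8 share was higher in cKO 1 only. The otic Fgf10 share was higher in both cKO libraries, and the otic Fgf3 share was higher in control 1 but not in control 2. Neural tube progenitor-like cells had Fgf10 in 0 cells of both cKO libraries and in 1 of 64 (1.56%) and 0 cells of the control libraries, and Fgf3 in 3 of 209 (1.44%) and 2 of 60 (3.33%) cells of the cKO libraries and 0 cells of the control libraries, at median depths of 21417.5 and 16224.5 UMIs in the cKO libraries and 19615 and 19918 in the control libraries.

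Otic cells with an Fgf10 UMI had more Dusp6, Etv1 and Etv5 than those without in 4 of 4 libraries. Such ratios were computed for the members alone, so the counts of members with the same sign have no share over all genes beside them. In otic cells they were not computed inside finer clusters, which differed in Fgf10 and members together. In control libraries 1 and 2, a finer cluster led by Gucy1a1 had Fgf10 at 39.7 and 31.0 CPM and Etv1 at 28.5 and 34.5 CPM. Another led by Cntn5 had 11.3 and 10.9 CPM of Fgf10 and 12.9 and 12.5 CPM of Etv1. Whether the otic ratios set such parts against each other was not tested. The log2 ratio of Etv1 was 1.46 and 0.57 in the cKO libraries, against 0.65 and 0.65 in the control libraries. That of Dusp6 was 0.15 and 0.44 in the cKO libraries, against 0.47 and 0.76 in the control libraries, and that of Etv5 was 0.14 and 0.21 in the cKO libraries, against 0.23 and 0.61 in the control libraries. Spred2 was lower in Fgf10-positive cells of all 4 libraries (log2 ratios of -0.71 to -0.19), and the other 6 members differed in sign between libraries. Cells with an Fgf3 UMI had more Dusp6 in 4 of 4 libraries (0.23 and 0.11 in the cKO libraries, 0.11 and 0.64 in the control libraries), the 1 member to do so. Spry1 differed in sign between genotypes: its log2 ratio in Fgf3-positive cells was 0.53 and 0.76 in the cKO libraries, against -0.51 and -0.62 in the control libraries, a difference that was not tested. With Fgf8, no member was higher in all 4 libraries, and Spry1 was lower in all 4 (-2.40 to -0.09), from 61 and 72 positive cells in the cKO libraries and 24 and 28 in the control libraries.

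**Figure D5:**
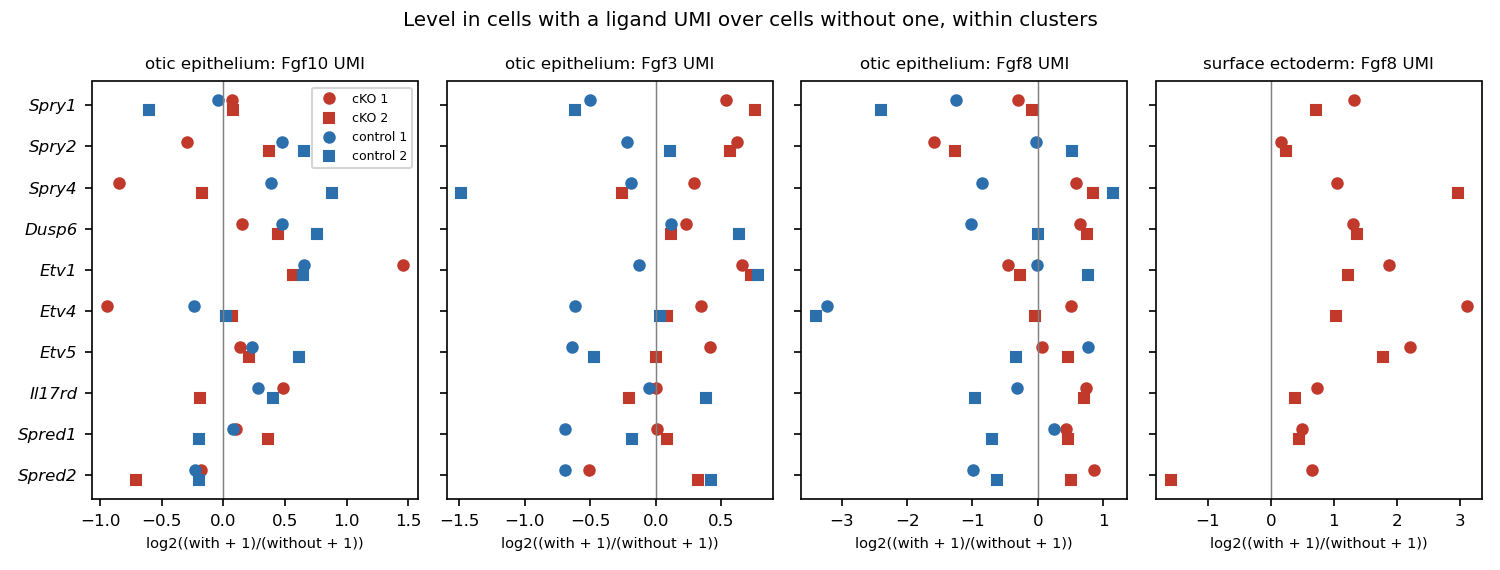
Log2 ratio of each member's level in cells with against without a UMI of the named ligand, inside clusters and at 10000 UMIs per cell; each point is a library (red cKO, blue control; circle library 1, square library 2). Etv1, Dusp6 and Etv5 lie above 0 in all 4 libraries for otic Fgf10, and 9 of 10 members lie above 0 in both cKO libraries for surface ectoderm Fgf8, where 7 of 10 do when the class is divided further. The same ratios were not computed for all genes, nor for otic cells inside finer clusters.

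The surface ectoderm-like cells (308 and 300 cells in the cKO libraries, 190 and 38 in the control libraries) had far more Fgf8 in cKO. Fgf8 had 93.4 and 107 CPM in the cKO libraries, against 8.28 and 1.31 CPM in the control libraries (log2 change 3.88, edgeR adjusted p = 0.000114). Of the 10 members 1 was called, beside 3.55% of all tested genes (2 at an unadjusted p under 0.05): Dusp6 had 56.9 and 63.3 CPM in the cKO libraries, against 36.9 and 19.6 CPM in the control libraries (log2 change 0.96, SE 0.20, adjusted p = 0.0326). That call did not hold without library cKO 2 (adjusted p = 0.108), and at a finer clustering, where fewer cells kept this class name, the sign turned (log2 change -0.90, adjusted p = 0.0603). Spry1 had 43.4 and 45.1 CPM in the cKO libraries, against 33.1 and 22.2 CPM in the control libraries (adjusted p = 0.0844). Library control 2, with 38 cells, had Etv4 and Etv5 at 0 and Etv1 at 2.61 CPM, against 43.3 CPM of Etv1 in control 1.

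The make-up of this class moved with the genotype. At the finer clustering its cells divided into a part with surface ectoderm markers (134 and 120 cells in the cKO libraries, 102 and 35 in the control libraries) and an unnamed part led by genes such as Foxi2 and Nkx2-6 (171 and 177 cells in the cKO libraries, 87 and 3 in the control libraries). In the first part Dusp6 had 13.6 and 11.5 CPM in the cKO libraries, against 26.6 and 20.6 CPM in the control libraries, so both cKO values lay below both control values. Fgf8 went the other way there, with 21.2 and 8.86 CPM in the cKO libraries, against 3.86 and 1.37 CPM in the control libraries. In the unnamed part Dusp6 had 87.1 and 92.6 CPM in the cKO libraries, against 49.7 CPM in control 1. Fgf8 had 143 and 162 CPM in the cKO libraries, against 13.8 CPM in control 1. Spry1, Etv4 and Il17rd were also higher in both cKO libraries than in control 1. Etv1 was lower (41.1 and 32.0 against 88.6 CPM), as were Etv5 (23.6 and 16.3 against 28.7 CPM), Spred1 and Spred2. Spry2 and Spry4 in control 1 lay between the cKO values. With 3 cells in control 2 this part was not tested.

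Over the whole class, cells with Fgf8 had more of most members. An Fgf8 UMI was found in 62 of 281 (22.1%) and 71 of 275 (25.8%) cells of the cKO libraries, against 14 of 181 (7.73%) and 0 of 37 in the control libraries (unthinned, 29.2% and 30.9% in the cKO libraries, against 19 of 181 and 1 of 37 cells of the control libraries). Neural tube progenitor-like cells had no Fgf8 UMI in any library. Dusp6 had 102 CPM in Fgf8-positive and 40.6 CPM in Fgf8-negative cells of cKO 1, and 115 and 44.1 CPM in those of cKO 2. The log2 ratio was 3.11 and 1.03 for Etv4, 2.21 and 1.77 for Etv5, 1.88 and 1.23 for Etv1, and 1.32 and 0.71 for Spry1 in cKO 1 and cKO 2. Of the 10 members 9 were higher in Fgf8-positive cells of both cKO libraries, with Spred2 as the exception (0.65 and -1.59). The ratios were computed for the members alone, so no share over all genes stands beside this count or the count inside the parts given below. Fgf8-positive cells lay mostly in the unnamed part (57 of 163 and 66 of 171 cells in cKO 1 and cKO 2, beside 5 of 118 and 5 of 104 in the part with surface ectoderm markers), so these ratios also set one part against the other. Read inside the parts, a setting chosen after seeing the data, 7 of 10 members were higher in both cKO libraries and the log2 ratios were smaller, at 0.68 and 0.68 for Dusp6, 2.41 and 0.37 for Etv4, 1.5 and 1.12 for Etv5, 1.07 and 0.42 for Etv1 and 0.98 and 0.26 for Spry1. The control libraries had too few positive cells for the same reading. Cluster 16, an unnamed cluster led by Pax1, Foxi2 and Trp63, showed similar levels: Fgf8 had 119 and 117 CPM in the cKO libraries against 20.9 CPM in control 1, and Dusp6 had 66.5 and 91.8 CPM in the cKO libraries against 33.8 CPM in control 1. With 16 cells in control 2, it was not tested.

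In the placodal sensory neuron lineage-like cells (neuroblasts and young neurons; clusters 11, 14 and 18) 3 members rose and 0 fell, beside 36.3% of all tested genes called. Etv4 had 5.80 and 8.05 CPM in the cKO libraries, against 1.96 and 1.71 CPM in the control libraries. The genotypes lay far apart, and the log2 change of 1.96 (SE 0.30, edgeR adjusted p = 0.000793) was the largest of any member among the named classes tested. Dusp6 had 17.1 and 23.1 CPM in the cKO libraries, against 13.4 and 12.6 CPM in the control libraries (log2 change 0.73, adjusted p = 0.00826), and Spry1 had 6.13 and 5.25 CPM in the cKO libraries, against 3.52 and 2.92 CPM in the control libraries (log2 change 0.92, adjusted p = 0.0248). At a finer clustering, where the class held 183 and 262 cells in the cKO libraries and 65 and 50 in the control libraries, the signs of Dusp6 (log2 -0.49) and Spry1 (log2 -0.39) turned, and that of Etv4 did not. The Spry1 call was also lost with DESeq2 (adjusted p = 0.199), without cKO 1 and without control 2 (adjusted p up to 0.151) and the Dusp6 call without cKO 2 (adjusted p = 0.081), while the Etv4 call was kept in all 4 such fits.

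Cluster make-up moved with the class-wide values. Cluster 18 gave 66 and 90 of the 176 and 183 cells in the cKO libraries, but 61 and 50 of the 408 and 549 cells in the control libraries, and cluster 11 gave 16 and 13 cells in the cKO libraries against 215 and 361 in the control libraries. Within cluster 18 Dusp6 had 28.1 and 34.7 CPM in the cKO libraries, against 27.4 and 47.6 CPM in the control libraries, and within cluster 14 it had 12.2 and 9.45 CPM in the cKO libraries, against 8.93 and 13.3 CPM in the control libraries. Both pairs overlapped, as did Spry1 in both clusters. Etv4 did not: it had 8.15 and 11.6 CPM in the cKO libraries against 3.82 and 4.76 CPM in the control libraries in cluster 18, and 5.06 and 5.12 CPM in the cKO libraries against 2.10 and 0.784 CPM in the control libraries in cluster 14. Of the ligands, Fgf10 had 43.4 and 44.8 CPM in the cKO libraries against 111 and 91.5 CPM in the control libraries (log2 -1.09), Fgf8 changed by -1.29 and Fgf3 by 0.89 on the log2 scale. This class had the highest Fgf10 of the named classes together with Spry1 of 2.92 to 6.13 CPM, and no member was higher in Fgf10-positive cells of this lineage in all 4 libraries.

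Cluster 7 carried 9 of 11 markers of the same lineage but kept no class name; it held 125 and 180 cells in the cKO libraries and 223 and 177 in the control libraries. Of 9 members tested 4 rose, beside 26.5% of all tested genes. Etv4 had 10.1 and 8.18 CPM in the cKO libraries, against 3.02 and 2.77 CPM in the control libraries (log2 change 1.67, SE 0.27, edgeR adjusted p = 0.00112). Dusp6 had 20.6 and 21.1 CPM in the cKO libraries, against 13.0 and 13.1 CPM in the control libraries (log2 change 0.76, SE 0.16, adjusted p = 0.00552). Spry1 (log2 1.15, adjusted p = 0.0182) and Spry2 (log2 0.82, adjusted p = 0.0367) rose too, without overlap, while Etv1 at 25.5 to 28.9 CPM and Etv5 did not pass the test. The finer clustering divided these cells by genotype: 1 part held 115 and 169 cells in the cKO libraries and 0 and 0 in the control libraries, and the other 10 and 11 cells in the cKO libraries and 223 and 177 in the control libraries, so these differences lie between cells of different clusters. DESeq2 called Etv4 alone here, and the Spry1 call was lost without control 2 and without cKO 1, and the Spry2 call in 3 of 4 such fits (adjusted p up to 0.241). As in the lineage class, Fgf8 (log2 -1.70) and Fgf10 (log2 -1.06) fell and Fgf3 rose (log2 0.81).

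Epibranchial visceral sensory neuron-like cells (334 and 429 cells in the cKO libraries, 337 and 294 in the control libraries) had 2 members higher and 1 lower, beside 27.5% of all tested genes. Etv5 had 17.3 and 17.7 CPM in the cKO libraries, against 29.6 and 27.6 CPM in the control libraries (log2 change -0.60, SE 0.12, edgeR adjusted p = 0.00895). Etv4 had 14.0 and 12.1 CPM in the cKO libraries, against 9.97 and 7.31 CPM in the control libraries (log2 change 0.69, adjusted p = 0.0357), and Il17rd had 21.9 and 24.2 CPM in the cKO libraries, against 19.8 and 16.8 CPM in the control libraries (log2 change 0.44, adjusted p = 0.0376). Leaving out 1 library ended the Etv5 call in 2 of 4 fits (without control 1 and without control 2) and the Etv4 and Il17rd calls in 3 of 4 fits each, and DESeq2 called 0. Here too the make-up differed: cluster 12 gave 54 and 136 cells in the cKO libraries, against 185 and 179 in the control libraries. Within cluster 12 Etv5 had 31.2 and 25.0 CPM in the cKO libraries, against 34.3 and 36.4 CPM in the control libraries. At the finer clustering, a cluster led by Prph and Ntng1 held 1 and 4 cells in the cKO libraries, against 184 and 179 in the control libraries. Another led by Sst and Prox2 held 53 and 125 cells in the cKO libraries, against 2 and 0 in the control libraries. These genes also lead cluster 12, so its values may set different cells against each other. Within cluster 9 Etv5 overlapped between genotypes. Dusp6 did not, with 36.8 and 36.3 CPM in the cKO libraries against 12.9 and 12.1 CPM in the control libraries. Single clusters of this class were not tested.

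In mesenchyme-like cells (293 and 90 cells in the cKO libraries, 116 and 167 in the control libraries) 0 of 10 members were called by edgeR, beside 5.90% of all tested genes, while 4 had an unadjusted p under 0.05. DESeq2 gave an adjusted p for 3 of the 10 and called 0 of those. Spry2 had 16.9 and 7.88 CPM in the cKO libraries, against 7.72 and 5.31 CPM in the control libraries (log2 change 1.17, edgeR adjusted p = 0.0697), and Etv4 had 9.62 and 7.88 CPM in the cKO libraries, against 4.14 and 5.54 CPM in the control libraries (adjusted p = 0.0757). Fgf3 was at 0.423 and 10.6 CPM in the cKO libraries, against 0.276 and 0 CPM in the control libraries, with 31 UMIs in cKO 2 and 4 in cKO 1, against 1 and 0 in the control libraries. The receptor genes Fgfr1 (log2 -0.58) and Fgfr2 (log2 -0.89) fell.

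Leukocyte-like cells had 0 of 5 tested members called by edgeR (3.03% of all tested genes called; 0 members at an unadjusted p under 0.05; DESeq2 gave an adjusted p for 2 members and called 0 of them). Neural tube neuron-like cells had 0 of 4 (0.477% of all tested genes; 0 unadjusted; DESeq2 gave no member an adjusted p). Neural tube progenitor-like cells had 0 of 3 (1.19% of all tested genes; 1 unadjusted; DESeq2 gave no member an adjusted p): Spred1 had 23.4 and 22.3 CPM in the cKO libraries, against 37.2 and 40.5 CPM in the control libraries (log2 change -0.69, edgeR adjusted p = 0.127). Too few counts kept 5 members out of the test in leukocyte-like cells, 6 in neural tube neuron-like cells and 7 in progenitor-like cells. Progenitor-like cells had clear receptor RNA (Fgfr1 at 35.7 and 51.6 CPM in the cKO libraries, 48.8 and 45.2 CPM in the control libraries) but Dusp6 at 3.57 and 2.31 CPM in the cKO libraries and 4.06 and 2.35 CPM in the control libraries. Cluster 17, an unnamed cluster led by En1, Otp and Adarb2, had 1 of 3 tested members called by edgeR (6.06% of all tested genes). DESeq2 gave no member an adjusted p there. Dusp6 had 19.8 and 9.60 CPM in the cKO libraries, against 1.12 and 2.28 CPM in the control libraries. Its log2 change was 2.65 (SE 0.54, edgeR adjusted p = 0.00253), a call lost without cKO 1 and without control 2. Dusp6 had enough counts for the test in the cKO libraries only, so the call rests on few control counts.

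Over all kept cells 5 of 10 members were called, all 5 higher in cKO cells (27.0% of all tested genes called), but with libraries scaled by totals alone 4 were called higher and 2 lower. They were Spry1 (log2 0.98), Etv4 (log2 0.93), Spry2 (log2 0.92), Dusp6 (log2 0.59) and Il17rd (log2 0.51). In a sum over all cells, a different share of classes and a different level per cell cannot be told apart.

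Whether the genotype response of otic cells differed from that of another class was tested as an interaction with the library as a block. Against epibranchial neuron-like cells 1 of 10 members differed (11.6% of all tested genes), against the placodal neuron lineage 2 of 10 (19.2%), against cluster 7 2 of 9 (8.88%) and against cluster 17 1 of 3 (3.89%). Against leukocyte-like cells edgeR called 0 of 5 (1.66% of all tested genes; 0 at an unadjusted p under 0.05), against mesenchyme-like cells 0 of 10 (5.66%; 2 unadjusted), against neural tube neuron-like cells 0 of 4 (3.81%; 1 unadjusted), against neural tube progenitor-like cells 0 of 3 (3.73%; 2 unadjusted) and against surface ectoderm-like cells 0 of 10 (2.60%; 2 unadjusted). The otic response of Etv5 exceeded the epibranchial one by 0.71 on the log2 scale (adjusted p = 0.00148). The otic response of Etv4 was lower than that of the placodal neuron lineage by 1.20 (log2 difference -1.20, adjusted p = 0.0092) and that of Spred1 by 0.57 (log2 difference -0.57, adjusted p = 0.00451). The Etv4 difference was lost without cKO 2 and without control 2 (adjusted p up to 0.166) and the Spred1 difference without cKO 2. The members that differed from cluster 7 were Dusp6 and Etv4, kept in 1 and 0 of the 4 fits with a library left out, and the 1 that differed from cluster 17 was Dusp6, lost without cKO 1 and without control 2.

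The rest of the FGF pathway in otic cells is given from lists of genes named by role, beside the median log2 change of -0.02 over all genes tested. Of all genes tested in otic cells 40.1% were called, 20.8% higher and 19.3% lower in cKO cells. Of 22 ligand genes 15 could be tested: 7 rose, 5 fell and 3 did not pass (median log2 change 0.66). Besides Fgf3 and Fgf8, Fgf4 rose, with 3.14 and 2.71 CPM in the cKO libraries against 0.0278 and 0.0526 CPM in the control libraries (edgeR adjusted p = 1.69e-05; the fitted fold depends on the prior count at so few control counts). Fgf15 had 11.3 and 9.65 CPM in the cKO libraries, against 2.02 and 1.18 CPM in the control libraries (log2 2.84), and Fgf18 had 15.0 and 17.9 CPM in the cKO libraries, against 6.41 and 6.89 CPM in the control libraries (log2 1.48). Fgf9 had 55.9 and 49.4 CPM in the cKO libraries, against 42.7 and 46.2 CPM in the control libraries (log2 0.41), and Fgf17 rose by 0.73. Falls were seen in Fgf14 (0.0459 and 0.0139 CPM in the cKO libraries against 2.33 and 1.40 CPM in the control libraries), Fgf11 (log2 -1.80), Fgf16 (log2 -1.44) and Fgf13 (log2 -1.09); Fgf11, Fgf13 and Fgf14 encode intracellular FGF-homologous factors that are not secreted ligands. Fgf16 turned with the territory: inside Otx1-low cells alone it rose (log2 2.38, adjusted p = 0.00757). Fgf12 and Fgf20 did not pass the test in otic cells.

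Among 5 receptor genes, Fgfr1 fell to 22.2 and 23.0 CPM in the cKO libraries, against 28.5 and 30.7 CPM in the control libraries (log2 -0.22), Fgfr2 fell to 13.3 and 12.5 CPM, against 18.3 and 25.0 CPM in the control libraries (log2 -0.57), and Fgfrl1, a receptor without a kinase domain, rose by 0.28. Fgfr3 (0.917 and 0.778 CPM in the cKO libraries, 0.570 and 0.929 CPM in the control libraries) and Fgfr4 did not pass. In the placodal neuron lineage Fgfr3 (log2 2.97) and Fgfrl1 (log2 1.21) rose, and in epibranchial neuron-like cells Fgfr1 (log2 0.89) and Fgfrl1 (log2 0.75) rose.

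Of 18 genes of the RAS-ERK relay 4 rose, 5 fell and 9 did not pass in otic cells (median log2 change 0.08). This and the next 2 lists stand beside 40.1% of all tested genes called. The adaptor Gab1 fell by 0.67, while Hras (log2 0.42), the kinase Map2k2 (log2 0.39) and the adaptor Grb2 (log2 0.36) rose. Of 16 tested genes of other ERK feedback and response, 2 rose, 6 fell and 8 did not pass (median -0.12). Flrt2 (log2 -1.99), Dusp9 (log2 -0.52) and Dusp5 (log2 -0.51), the last 2 also phosphatases of the Dusp6 family, fell, and Phlda1 rose (log2 0.47). Dusp9 had 24.6 and 26.0 CPM in the cKO libraries, against 37.8 and 43.6 CPM in the control libraries. Of 14 tested immediate early and dissociation stress genes 3 rose, 2 fell and 9 did not pass (median 0.07): Ier3 (log2 1.78, with 11.2 CPM in cKO 1 and 2.33 CPM in cKO 2 against 2.22 and 2.03 CPM in the control libraries), Socs3 (log2 0.58) and Ier2 (log2 0.43) rose and Nr4a1 fell (log2 -0.90), and the part of dissociation in the members' levels was not tested. When libraries were scaled by totals alone, the median of all genes in otic cells shifted by -0.17 and the share of calls that were higher in cKO cells was 25.8%, against 51.9% with normalization factors; the 6 otic member calls held under both.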

How the data were processed

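The authors deposited gene-by-cell matrices of raw UMI counts (10x Genomics 3′ v3.1 chemistry), with Cell Ranger 6.0.1 per the file headers; per the submitters' processing notes the tools were FastQC 0.11.4, Seurat 4.1.0 and Cell Ranger 3.1.0, and the build mm10. Whether counting used strand is not given in the sources used here.
Cells with at least 1000 genes and at most 10% mitochondrial UMIs were kept, and the highest Scrublet scores were removed as doublets (0.8% per 1000 barcodes, 124 and 148 barcodes in the cKO libraries and 154 and 160 in the control libraries), since the automatic Scrublet calls marked only 5 and 0 barcodes in the cKO libraries and 3 and 2 in the control libraries. Cells were clustered with scanpy 1.11.5 and leidenalg 0.10.2 (Python 3.11.15, 2000 variable genes, 30 components, 20 neighbours, resolution 1). The members, the FGF ligands, Tbx2 and Tbx3 took no part in it. A cluster was named after a class when at least 3 and at least 40% of its markers had 10 CPM or more and 2 times the median cluster. The class with most such markers was taken, and the placodal name gave way where the epibranchial or neural tube progenitor list also qualified. The name was withheld when the 10 leading genes held more markers of another class, as in cluster 7 (Tbx18, a mesenchyme marker). It was also withheld for clusters low in UMIs without an own marker among the leading genes, and where Ttr and Foxj1 were among them. Names are therefore rebuilt, not the authors'.
Counts were summed per class and library and tested with edgeR 4.0.16 (R 4.3.3, quasi-likelihood test, TMM factors, prior count 1, Benjamini-Hochberg adjustment over all genes tested, 0.05) where each library had at least 20 cells. DESeq2 1.42.0 was an alternative. The scripts were tested on simulated data. With 2 libraries against 2, an exact permutation test cannot go below 0.333, so none is reported. CPM is per total UMI of the class, and log2 changes use TMM factors.
The members and lists were chosen with earlier results of these data known. Genes named are all members, Fgf3, Fgf8, Fgf10 and other FGF ligands of at least 5 CPM in a class, receptors, Tbx2 and Tbx3, called genes of each other list with the 4 largest changes, and the 5 genes most alike the members; Fgf4, Fgf11, Fgf14 and Fgf16 were also among the called ligands. Promoters come from RefSeq (8 of 10 members matched).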

Additional observations from a re-analysis of the deposited data

Results flagged for a closer look

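Each of these results was picked out because the genotype response of otic cells differed from that of another class in a test of the difference itself (edgeR interaction term; otic minus other, log2). The Etv5 response was 0.71 above that of epibranchial neuron-like cells (SE 0.12, adjusted p = 0.00148), and the call was kept when each library in turn was left out (adjusted p up to 0.00428).
The Etv4 response differed from that of the placodal neuron lineage by -1.20 (adjusted p = 0.0092), a call lost without cKO 2 and without control 2 (adjusted p up to 0.166). The Spred1 difference from the same lineage was -0.57 (adjusted p = 0.00451), lost without cKO 2 (adjusted p = 0.0532).
Against cluster 7 the Dusp6 difference was -0.53 (adjusted p = 0.0385), kept in 1 of 4 such fits, and the Etv4 difference was -0.92 (adjusted p = 0.0297), kept in 0 of 4. Against cluster 17 the Dusp6 difference was -2.86 (edgeR adjusted p = 0.000283), lost without cKO 1 and without control 2. In cluster 17 Dusp6 had enough counts for the test in the cKO libraries only, so this difference rests on few control counts.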

How the results depend on the processing

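In otic cells all 6 called members kept direction and call in 11 alternatives and with each library left out (4 to 5 higher, 2 to 2 lower). Otic Dusp6 was called as well under the replicate block, the crossed block, no low-count filter and resolution 2. Depth limits the small classes, where most members had too few counts. The planned comparison of single otic clusters was not run, because each cluster held 1 genotype. The numbers of called members moved in other classes. For epibranchial neuron-like cells the 3 calls became 1 with totals only, 5 with no low-count filter, 0 with DESeq2 and 1 at resolution 2, and 0 to 3 with 1 library left out. For mesenchyme-like cells the 0 became 4 with no filter, 2 under the crossed block and 1 with no doublet removal (0 to 3 with 1 library left out). Neural tube neuron-like cells gave 1 at resolution 0.5 and progenitor-like cells 1 under the crossed block. The placodal lineage gave 1 at resolution 2, and 5 with no doublet removal or with members kept among the clustering genes (2 to 5 with 1 library left out). Surface ectoderm-like cells gave 2 with no filter, 0 at resolution 2 and 0 to 7 with 1 library left out. Cluster 7 gave 1 with DESeq2 (2 to 4), cluster 17 0 to 1, Dlx5-high cells 0 with DESeq2 and 2 under the crossed block (0 to 2), Otx1-low cells 2 to 4 higher, and all kept cells 3 to 5 (totals only, 4 higher and 2 lower). With 1 library left out, the interactions gave 1 to 2 calls for epibranchial, 0 to 3 for mesenchyme, 1 to 4 for placodal, 0 to 3 for surface ectoderm, 0 to 1 for cluster 7 and 0 to 2 for cluster 17. Members higher in all libraries in Fgf3-positive otic cells numbered 3 with no thinning and 3 pooled over clusters, against 1; in Fgf8-positive ones 1 with no thinning, against 0. The cause was not tested.
The replicate block (replicate number as a term) gave 0 calls in surface ectoderm-like cells, where Dusp6 had adjusted p = 0.139, and turned Etv5 there to 0.27. Same-numbered libraries deviated with a correlation of -0.11 over 13258 genes, so the crossed pairing was added after seeing the data: it gave 2 calls in surface ectoderm-like cells.
Signs turned (log2) for Spry4 in otic cells (totals -0.0282, resolution 2 -0.15; -0.03 to 0.30 with 1 library left out) and in Otx1-low cells (crossed block 0.0019; -0.39 to 0.40 with 1 library left out), Etv5 in otic cells (totals -0.0195) and cluster 7 (totals -0.009), and Dusp6 in Otx1-low cells (-0.24 to 0.19 with 1 library left out). In surface ectoderm-like cells they turned for Spry2 (resolution 2 -0.23; -0.15 to 1.63), Dusp6 (resolution 2 -0.90), Il17rd (resolution 2 -0.22), Etv1 (-0.83 to 3.11), Etv5 (crossed block 0.0472, no doublet removal 0.0294; -0.45 to 5.96) and Spred2 (-0.26 to 0.29), ranges being those with 1 library left out. In the placodal lineage resolution 2 turned Spry1 to -0.39, Dusp6 to -0.49, Etv1 to -0.26, Etv5 to -0.43, Il17rd to -0.70 and Spred1 to -0.36; with 1 library left out Etv1 ran from -0.16 to 0.62, Il17rd from -0.41 to 0.63 and Spred2 from -0.29 to 0.11.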
